A study of Mus musculus with 26 samples.

Results

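Mouse embryonic stem cells (mESCs) without Mtgr1 were compared with mESCs that make a Prdm14 protein carrying the E294K substitution, both in serum+LIF. The comparison was chosen by genotype and took 5 of the 15 RNA-seq libraries with values in a series of 26 samples. The first group held 3 Mtgr1-/- libraries (clones A3, C1 and C3), and the second held 2 libraries from Prdm14-/- clones F10 and G6 reconstituted with the FLAG- and HA-tagged E294K mutant (FH-Prdm14 E294K). All cells descended from 1 mESC line with a Stella:GFP reporter transgene. They were kept in 2i+LIF, a serum-free medium that inhibits MEK and GSK3β, and were grown for 5 days in serum+LIF without feeder cells before RNA was taken. The mutations were made with CRISPR-Cas9, so that each knockout library stands for 1 clone, and the promoter that drives the transgene is not given in the sources used here. The groups therefore differ in the gene that was disrupted, in the clones and in the presence of an overexpressed Prdm14 mutant. The wt library, the Prdm14-/- libraries and the libraries with wild-type transgenes (FH-Prdm14, FH-Mtgr1) were used as levels to set beside the result, and the other 11 samples hold ChIP-seq and were not analysed here.

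Prdm14 is a PR/SET-domain protein with zinc fingers that binds DNA and is required for germ cell specification, and in mESCs it helps to hold the naïve state by repressing genes of the epiblast and of extraembryonic lineages. Mtgr1, encoded by Cbfa2t2, belongs to the ETO family of corepressors, which do not bind DNA on their own and bring in Ncor and Sin3 complexes with histone deacetylases. The E294K substitution lies in the surface of Prdm14 that meets Mtgr1 and was designed to break the contact. The comparison thus sets cells that lack the corepressor against cells in which the corepressor is present but its contact with Prdm14 is disrupted.

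The authors deposited RPKM values (read counts scaled to gene length and library size) for 24015 genes. Between 11329857 (clone C3) and 20630603 (clone A3) reads on genes stood behind the 5 libraries. All 8 embryonic stem cell markers examined were expressed in every one of these libraries, from 25.1 RPKM (Nanog in C3) upwards, and 5 of them (Pou5f1, Sox2, Nanog, Dppa5a and Zfp42) were lower in Mtgr1-/- cells, as were 3 and 2 of them without E294K F10 or G6. Clone C3 stood apart: the SD of the log2 difference between libraries was 0.516 for A3 and C3 and 0.508 for C1 and C3, against 0.225 for A3 and C1 and 0.222 for the pair of E294K lines. C3 was the Mtgr1-/- library farthest from the E294K mean for 60.1% of the genes that differed. Genes of the Y chromosome were nearly silent in clone A3, with Ddx3y at 0.0104 RPKM, against 10.5 RPKM in C1, 4.18 RPKM in C3, and 5.32 and 4.73 RPKM in the E294K lines F10 and G6. In the reconstituted lines the silent library was the one labelled C1R (0.0406 RPKM), not A3R (8.47 RPKM), and Prdm14-/- G6 was at 0.595 RPKM although E294K G6 was not low, so that the parental clones on the labels do not follow these genes. The group of each of the 5 libraries was taken from its label, and these genes do not test it. Eif2s3y, also on the Y chromosome, was at 0.732 and 9.70 RPKM in Prdm14-/- G6 and F10, and at 7.79 and 8.31 RPKM in E294K G6 and F10. Whether the E294K lines stem from different parental clones therefore cannot be told from these genes. Which sequencing run each library came from is not given in the sources used here, so that run and group cannot be told apart.

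Of 12281 genes tested, 4729 (38.5%) differed between the groups at an adjusted p below 0.05 in limma. Of these, 2277 (18.5% of the genes tested) were higher in Mtgr1-/- cells and 2452 (20.0%) were lower, and 842 and 868 of them differed by at least 1 on the log2 scale. The groups did not overlap for 68.9% of all genes tested. The median log2 difference over all genes was -0.04. The number of genes that differed depended on the libraries: it was 7607 without clone C3, 3681 without A3, 3416 without C1, 1325 without E294K F10 and 1064 without E294K G6. The p-values measure the spread between these libraries, and few clones stand behind them.

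**Figure D1:**
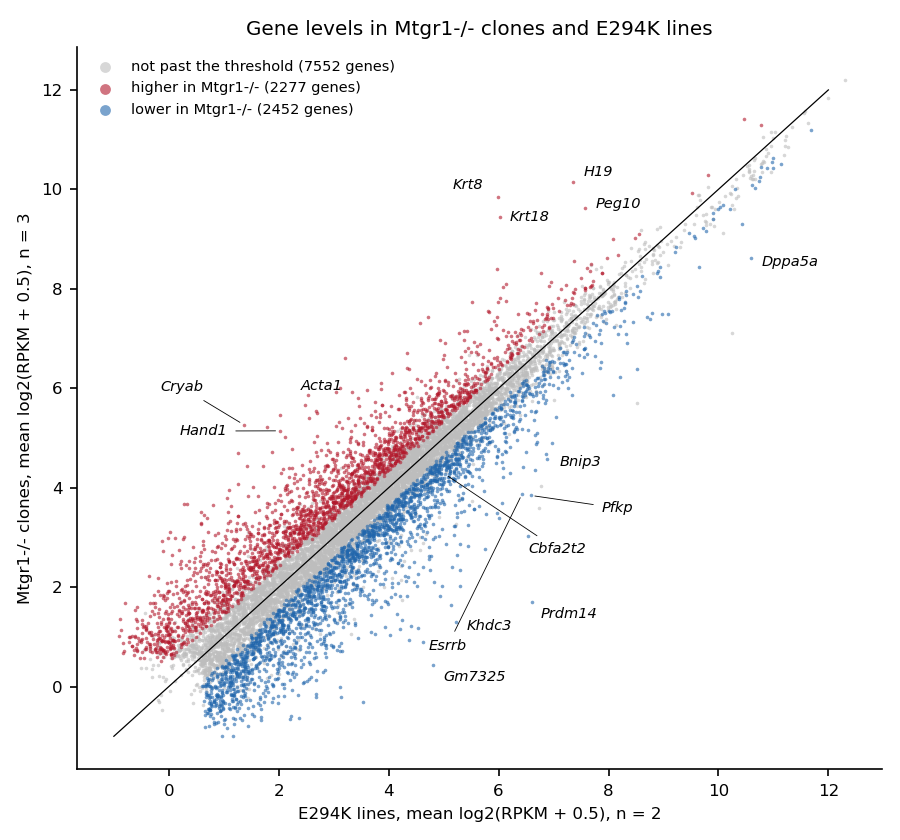
Mean log2(RPKM + 0.5) of each gene tested in the E294K lines (x axis, n = 2) and in the Mtgr1-/- clones (y axis, n = 3). Red points are the 2277 genes that were higher in Mtgr1-/- cells, blue points the 2452 genes that were lower and grey points the rest, the line marks equal levels, and Prdm14 lies far below it.

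Both genes that were manipulated had less RNA in the Mtgr1-/- clones than in the E294K lines. Prdm14 RNA was at 89.9 and 105 RPKM in the E294K lines F10 and G6, and at 3.63, 3.88 and 1.43 RPKM in the Mtgr1-/- clones A3, C1 and C3, a log2 difference of -4.90 (standard error 0.37, adjusted p = 0.00116 in limma). The wt serum+LIF library had 2.77 RPKM, so the E294K lines stood far above wt and the Mtgr1-/- clones near it. Cbfa2t2, on chromosome 2, was at 32.6 and 31.4 RPKM in the E294K lines against 19.9, 18.6 and 18 RPKM in the Mtgr1-/- clones. Its RNA was lower by a log2 difference of -0.75 (standard error 0.10, adjusted p = 0.0039 in limma) but was not lost, and the wt library had 40.7 RPKM. Without E294K F10 or G6 its adjusted p was 0.0613 or 0.0571. The other ETO family members, Runx1t1 and Cbfa2t3, lay between 0.205 and 0.553 RPKM in all 5 libraries and were not tested.

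Among 13 tested ETO proteins and corepressor subunits, 2 were higher and 5 lower in Mtgr1-/- cells, with a median log2 difference of -0.23. Over all genes tested, 38.5% differed. Sin3a, a scaffold of histone deacetylase complexes, was lower (log2 difference -0.77, adjusted p = 0.00462), and its paralog Sin3b was higher (0.99, adjusted p = 0.00502). Ncor1, the nuclear receptor corepressor, was lower by -0.70 on the log2 scale (adjusted p = 0.0195). These calls of Sin3a, Sin3b and Ncor1 needed both E294K lines, since without either line the adjusted p lay between 0.0531 and 0.142. Hdac1 and the demethylase Kdm1a did not pass the test, with log2 differences of -0.16 and -0.23. Without C3 Kdm1a passed (adjusted p = 0.00367), and without E294K F10 or G6 none of the 13 did.

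The 12 markers that the study names were then read in this comparison, and 11 of them differed, against 38.5% of all genes tested. Of the epiblast markers, Fgf5 was at 4.04 and 3.34 RPKM in the E294K lines and at 7.45, 5.68 and 5.71 RPKM in the Mtgr1-/- clones (log2 difference 0.69, adjusted p = 0.023). Wnt8a, a secreted signal of the early embryo, was at 0.481 and 0.290 RPKM against 2.30, 1.82 and 3.37 RPKM (log2 difference 1.73, adjusted p = 0.00477). The de novo methyltransferase Dnmt3b differed least, at 198 and 182 RPKM against 250, 245 and 279 RPKM (log2 difference 0.44, adjusted p = 0.0227), and with all 15 libraries in the fit it no longer passed (adjusted p = 0.299). Pou3f1, the gene for Oct6, did not pass (log2 difference 1.20, adjusted p = 0.0638): it was at 44.3 and 43.2 RPKM against 70.4, 78.6 and 186 RPKM, where clone C3 lay far above the others, and without C3 its log2 difference was 0.76 (adjusted p = 0.000114). Without E294K F10 or G6 the adjusted p was 0.0896 or 0.186 for Fgf5 and 0.13 or 0.217 for Dnmt3b, it was 0.0524 for Dnmt3b without A3, and for Wnt8a it was 0.0511 without G6.

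All 4 extraembryonic endoderm markers were higher in Mtgr1-/- cells. Krt19, a keratin of simple epithelia, was at 26.9 and 24.7 RPKM in the E294K lines and at 157, 155 and 210 RPKM in the Mtgr1-/- clones (log2 difference 2.72, standard error 0.16, adjusted p = 0.000831). H19, an imprinted noncoding RNA, was at 187 and 143 RPKM against 1238, 1510 and 768 RPKM (log2 difference 2.78, adjusted p = 0.00197). The FGF receptor Fgfr2 was at 2.38 and 2.28 RPKM against 7.33, 7.02 and 9.34 RPKM. Sparc, a matrix protein, differed less (log2 difference 0.79, adjusted p = 0.00814), and its adjusted p was 0.0679 or 0.0861 without E294K F10 or G6. The regulators of primitive endoderm gave no common direction, as 2 of 8 tested were higher and 2 lower, with a median of -0.47. Over all genes tested, 38.5% differed. Cubn, a receptor of the visceral endoderm, was lower in Mtgr1-/- cells (log2 difference -1.42, adjusted p = 0.0112), but the E294K lines themselves were apart at 6.25 and 3.17 RPKM and without F10 the adjusted p was 0.0619. Dab2, an adaptor of the same tissue, did not pass (log2 difference -0.20).

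Naïve pluripotency genes were lower in Mtgr1-/- cells as a group. Of 17 tested, 14 were lower and none higher, with a median log2 difference of -1.99, where 20.0% of all genes were lower and their median was -0.04. With each library left out in turn, between 11 and 16 were lower. Esrrb, a nuclear receptor of the naïve network, was at 83.1 and 88.1 RPKM in the E294K lines and at 12.1, 14.9 and 15.7 RPKM in the Mtgr1-/- clones (log2 difference -2.55, 95% confidence interval -2.89 to -2.22, adjusted p = 0.000831). Nr0b1 was at 33.6 and 36.4 RPKM against 3.38, 5.58 and 5.71 RPKM, and Tcl1, a coactivator of Akt, had a log2 difference of -3.06 (adjusted p = 0.00107). In each of these genes the lowest E294K library lay well above the highest Mtgr1-/- library, though the groups did not overlap for 68.9% of all genes. Tbx3 (log2 difference -2.50) and the dioxygenase Tet2 (-2.52) were lower too, and Zfp42 (Rex1) was at 278 and 313 RPKM against 82.0, 109 and 44.8 RPKM, with an adjusted p of 0.00884, and of 0.056 or 0.071 without E294K F10 or G6. Klf5 and Dppa3 did not pass the test, with log2 differences of -0.29 (interval -0.63 to 0.05) and 0.26 (interval -0.55 to 1.07), and both passed without C3 (adjusted p = 0.0192 and 0.000507). Dppa3 is the gene whose regulatory region drives the Stella:GFP reporter in these cells.

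The core pluripotency factors differed less. Of 13 tested, 6 were lower and 1 was higher, with a median of -0.50, where 38.5% of all genes tested differed. Sox2 was at 278 and 302 RPKM in the E294K lines and at 118, 132 and 160 RPKM in the Mtgr1-/- clones (log2 difference -1.10, adjusted p = 0.004, and 0.0522 without E294K G6). The homeodomain factor Nanog was at 96.5 and 108 RPKM against 30.7, 31.4 and 25.1 RPKM. Dppa5a, an RNA-binding protein abundant in mESCs, was at 1463 and 1637 RPKM against 419, 494 and 295 RPKM. Utf1 and Trim28 did not pass (log2 differences -0.04 and -0.18), though Trim28 did without C3 (adjusted p = 0.0145), and with adjustment for GC content both did (adjusted p = 0.0303 and 0.0135). Of 15 genes of the formative epiblast, 7 were higher and 3 lower (median 0.58), so that this group was not of 1 direction: Sox3 was higher by 1.78 (adjusted p = 0.0204, and 0.108 or 0.106 without E294K F10 or G6), whereas the transcription factors Otx2 and Lef1 were both lower by a log2 difference of -1.40. With each library left out, between 2 and 8 core factors were lower and between 1 and 9 formative genes higher, fewest without E294K G6 and most without C3.

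**Figure D2:**
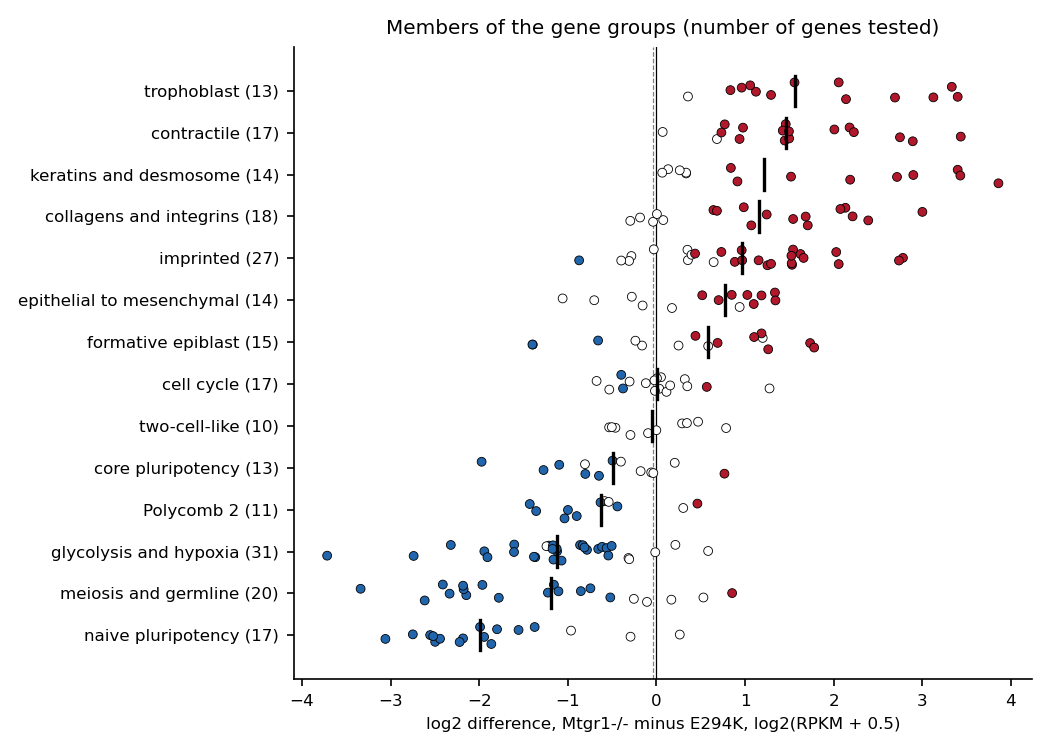
Log2 difference (Mtgr1-/- minus E294K) of each tested member of 14 gene groups. Red and blue points passed the test, white points did not, thick bars are group medians, and the dashed line is the median of all genes. The naïve pluripotency group lies farthest to the left with a median of -1.99, and the trophoblast group farthest to the right.

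Keratins of simple epithelia stood among the genes with the largest positive differences. The 10 with the largest included Cryab, Krt8, Acta1, Krt18, Vgf, Krt7, Vgll3, Plac1 and Gsn. Krt8 was at 63.0 RPKM in both E294K lines and at 792, 757 and 1303 RPKM in the Mtgr1-/- clones (log2 difference 3.86, standard error 0.25, adjusted p = 0.000972). Its partner in the intermediate filament, Krt18, was at 65.4 and 63.3 RPKM against 624, 563 and 967 RPKM. Krt7 had a log2 difference of 3.40. For all 3 keratins clone C3 had the highest level of the 3 Mtgr1-/- clones.

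Of 14 tested keratins and desmosome genes, 9 were higher and none lower, with a median of 1.22, and between 7 and 10 were higher with each library left out. The share of higher genes was 18.5% over all genes tested. Dsp, which ties keratin filaments to the desmosome, had a log2 difference of 2.90 (adjusted p = 0.000831 in limma). It was at 8.19 and 8.12 RPKM in the E294K lines and at 65.7, 52.5 and 76.2 RPKM in the Mtgr1-/- clones. The adhesion protein Epcam (log2 difference 0.07, interval -0.22 to 0.35) and Jup (0.33, interval -0.21 to 0.88) did not pass. The summed RPKM of the group was 442 and 431 in the E294K lines and 2034, 1919 and 3071 in the Mtgr1-/- clones. Of 14 genes used to follow an epithelial to mesenchymal change, 8 were higher and none lower, where 18.5% of all genes tested were higher. These 8 belonged to both sides, with Cdh1, Esrp2, Cldn4, Cldn6, Cldn7 and Ocln on the epithelial and Snai1 and Cdh2 on the mesenchymal side. Cdh1, Cldn4, Cldn6 and Ocln were past the threshold only with both E294K lines (adjusted p between 0.0568 and 0.208 without either), and Ocln also missed it without A3 (0.0646) or C1 (0.051). The epithelial splicing regulator Esrp2 (log2 difference 1.34) and the claudin Cldn7 (1.10, adjusted p = 0.0668 without E294K G6) stood beside Snai1 (1.34, adjusted p = 0.0551 without E294K G6) and Cdh2 (1.19, adjusted p = 0.0653 or 0.0894 without E294K F10 or G6). Vim and Fn1 did not pass (log2 differences -1.06 and -0.70), and both were low in A3 and C1 and higher in C3, with Vim at 14.8, 17.8 and 38.0 RPKM. With each library left out, between 1 (without E294K G6) and 10 (without C3) of the group were higher. Without C3 the log2 differences of Vim and Fn1 were -1.46 and -0.93 (adjusted p = 2.37e-05 and 3.05e-05).

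**Figure D3:**
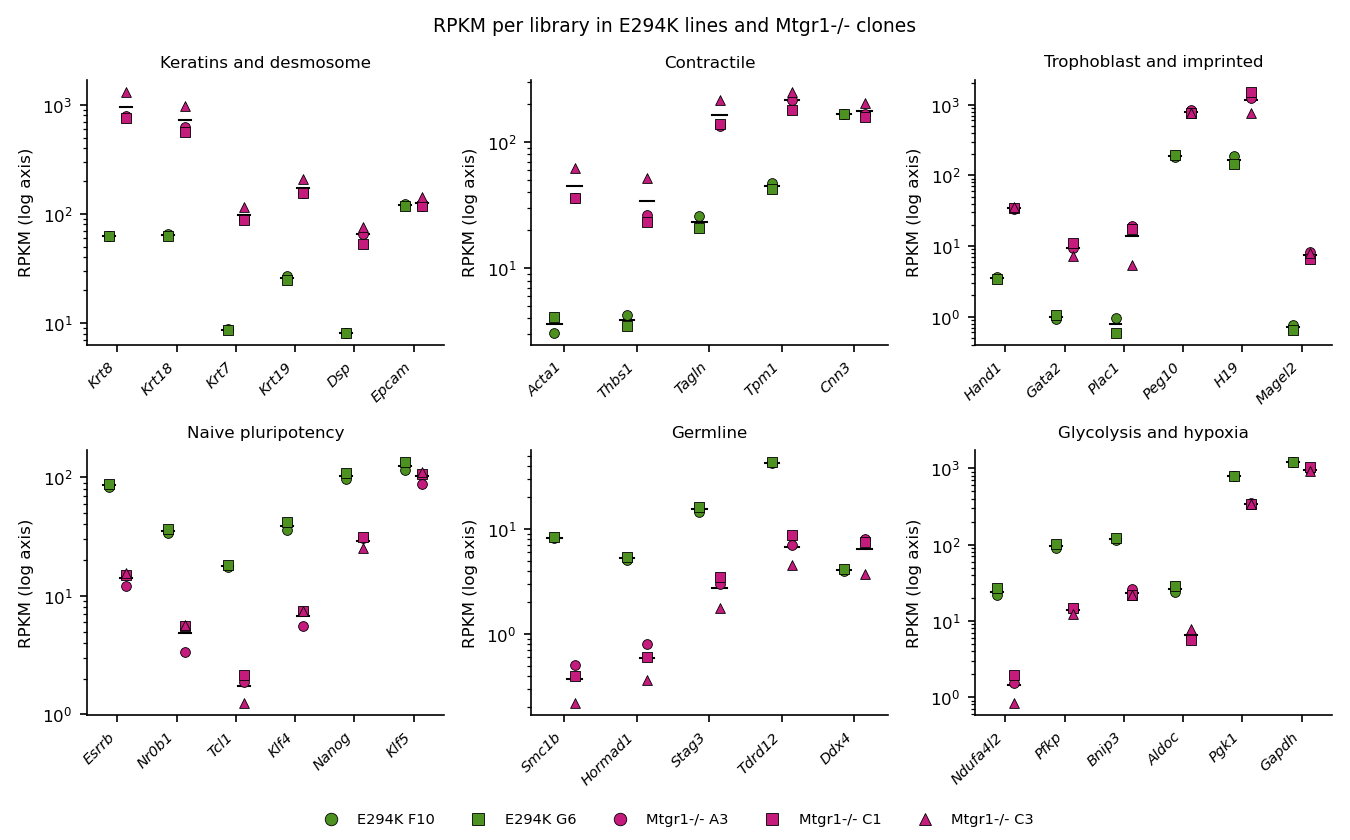
RPKM (log axis) of members of 6 gene groups in each of the 5 libraries. Green symbols are the E294K lines, magenta symbols the Mtgr1-/- clones, and bars the group means. For Krt8 the Mtgr1-/- clones lie between 757 and 1303 RPKM with C3 on top, while Epcam, Cnn3, Klf5, Ddx4 and Gapdh did not pass the test.

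Trophoblast genes were set beside all genes tested, of which 18.5% were higher, and had the highest median of the 14 groups plotted. Of 13 tested, 12 were higher in Mtgr1-/- cells and none lower, with a median log2 difference of 1.56, and between 9 and 12 were higher with each library left out. Hand1, a factor of trophoblast giant cells and of mesoderm, was at 3.66 and 3.44 RPKM in the E294K lines and at 33.7, 34.7 and 36.1 RPKM in the Mtgr1-/- clones (log2 difference 3.13, standard error 0.10, adjusted p = 0.000831). Gata2 was at 0.920 and 1.07 RPKM against 9.30, 11.1 and 7.35 RPKM (log2 difference 2.69). Plac1, a placental gene on the X chromosome, was at 0.968 and 0.587 RPKM against 19, 17.5 and 5.36 RPKM, with clone C3 well below the others (log2 difference 3.33, adjusted p = 0.00628, and 0.0567 without E294K G6). Tead4, an early factor of the lineage, did not pass (log2 difference 0.36). The defining regulators Cdx2, Elf5 and Gcm1 and the placental genes Tpbpa, Psg18 and Ctsj stayed too low to be tested, between 0 and 1.19 RPKM over the 5 libraries, and Psg18 was at 0 in all of them. Several members of the group that differed, Krt7 and Peg10 among them, are also held by the keratin or the imprinted group.

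Imprinted genes, which are expressed from 1 parental copy, were higher in 18 of 27 tested cases and lower in 1, with a median of 0.97. Of all genes tested, 18.5% were higher and 20.0% lower. Peg10, a placental gene derived from a retrotransposon, was at 183 and 197 RPKM in the E294K lines and at 848, 753 and 775 RPKM in the Mtgr1-/- clones (log2 difference 2.06, standard error 0.10). Magel2 was at 0.771 and 0.647 RPKM against 8.13, 6.53 and 8.10 RPKM (log2 difference 2.74), and its neighbour Ndn had a log2 difference of 2.03. H19 is described above. The noncoding RNA Rian did not pass (log2 difference 0.35, interval -0.36 to 1.07), and there the E294K lines themselves were far apart at 97.9 and 48.5 RPKM. Impact missed the threshold at 0.40 (adjusted p = 0.0549, and 0.000967 without C3). Between 10 and 19 imprinted genes were higher with each library left out, the smallest number being without E294K G6.

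Genes of the contractile cytoskeleton were higher in 15 of 17 tested cases and lower in none, with a median of 1.46. Of all genes tested, 18.5% were higher. Many of the contractile genes are targets of serum response factor or of Yap in other cells. Acta1, skeletal muscle actin, was at 3.06 and 4.12 RPKM in the E294K lines and at 36, 36.1 and 62.7 RPKM in the Mtgr1-/- clones (log2 difference 3.43, standard error 0.28, adjusted p = 0.00123). Thbs1, a matricellular protein, was at 4.29 and 3.45 RPKM against 26.4, 23.3 and 52.3 RPKM. Tagln was at 26 and 20.9 RPKM against 135, 139 and 215 RPKM, and Tpm1 at 47.3 and 43.0 RPKM against 216, 179 and 250 RPKM. Every Mtgr1-/- clone was above both E294K lines in these 4 genes, and clone C3 was the highest. The groups did not overlap for 68.9% of all genes tested. Cnn3 (log2 difference 0.07, interval -0.25 to 0.39) and Srf itself (0.68, adjusted p = 0.0608, and 0.0017 without C3) did not pass. Between 9 and 16 genes of the group were higher with each library left out.

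The element that serum response factor binds, the CArG box, was searched for in promoter windows that RefSeq gives for GRCm38.p6, from 250 bases before to 50 bases after the start of the gene. The motif was chosen after the values were seen. It was present on either strand in the windows of 5 of 13 contractile genes with a window (Acta1, Cnn2, Myl9, Srf and Vcl) and in 1.51% of the 9167 tested genes with a window. Many genes of this list are known targets of serum response factor, so this share reflects the list and not these libraries. Of the 5, Srf did not pass the test. A further motif searched in the same windows was GGTCTC, which opens the element known for Prdm14. It was in 6 of the 13 contractile windows (46.2%) and in 5 of 28 windows of glycolysis and hypoxia genes (17.9%). It was also in 21.7% of all windows, and in 23.4% and 23.2% of those of genes that were higher and lower. Of the 6 contractile genes with GGTCTC, Cnn3 and Srf did not pass the test. Matches to the CArG box are shown for the contractile genes that differed by most and carry one upstream of the start. The 60-base stretches are written in the direction of the gene, with the CArG box in capitals, and each was placed on NCBIM37 (mm9) by its only exact match on that chromosome.
Acta1 (chr8:126418714-126418773, minus strand): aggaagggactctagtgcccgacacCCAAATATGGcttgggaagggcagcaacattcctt
Cnn2 (chr10:79451264-79451323, plus strand): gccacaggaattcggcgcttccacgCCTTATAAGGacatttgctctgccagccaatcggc
Myl9 (chr2:156601014-156601073, plus strand): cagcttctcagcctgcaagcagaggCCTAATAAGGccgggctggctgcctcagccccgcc
Acta1, Cnn2 and Myl9 differed by 3.43, 1.46 and 0.98 on the log2 scale. A match of letters is not a measured site, and the windows of the genes that were higher (1.77%) and lower (1.63%) held the CArG box about as often as those of all genes.

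Collagens and integrins gave 13 higher genes of 18 tested and none lower, with a median of 1.16. The share of higher genes was 18.5% over all genes tested. Col5a2, a fibrillar collagen, was at 0.644 and 0.361 RPKM in the E294K lines and at 6.54, 4.98 and 12.5 RPKM in the Mtgr1-/- clones (log2 difference 3.0, adjusted p = 0.003). In the basement membrane, 5 of 14 genes were higher and 3 lower, with a median of 0.15, where 38.5% of all genes tested differed. Col4a1 and Col4a2, the main chains of its collagen network, were higher by 1.68 and 2.13, and the collagen chaperone Serpinh1 by 2.26. Lama1, a laminin chain, was lower instead (log2 difference -1.49, adjusted p = 0.00921, and 0.0768 without E294K F10). Between 4 and 13 collagen and integrin genes were higher with each library left out, fewest without E294K G6.

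Genes of glycolysis and of the response to low oxygen were lower in Mtgr1-/- cells as a group, where 20.0% of all genes tested were lower. Of 31 tested, 25 were lower and none higher, with a median of -1.12, and between 14 and 29 were lower with each library left out. Ndufa4l2, a mitochondrial protein induced in hypoxia, was at 21.5 and 27.0 RPKM in the E294K lines and at 1.51, 1.96 and 0.826 RPKM in the Mtgr1-/- clones (log2 difference -3.72, standard error 0.28, adjusted p = 0.00116). Pfkp, a phosphofructokinase of glycolysis, was at 89.7 and 102 RPKM against 14.5, 14.8 and 12.4 RPKM (log2 difference -2.74, adjusted p = 0.000831). Bnip3, which acts in mitophagy, was at 114 and 122 RPKM against 26, 21.7 and 22.2 RPKM. In Pfkp and Bnip3 clone C3 lay close to A3 and C1, and all 3 were far below both E294K lines. Groups without overlap were found for 68.9% of all genes tested. The aldolase Aldoc was lower by -1.94 on the log2 scale. The glucose transporter Slc2a1 (log2 difference 0.58, adjusted p = 0.0591) and Gapdh (-0.32, adjusted p = 0.0541) did not pass, but did without C3 (adjusted p = 0.00085 and 0.00985).

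Hypoxia-inducible factors bind a short element with the core ACGTG. This motif, also chosen after the values were seen, was found on either strand in the windows of 21 of 28 genes of the group with a window (75.0%) and in 29.9% of all tested genes with a window. The list holds genes known for the response to low oxygen, so this share reflects how the list was drawn up and not these libraries. Slc2a1 and Gapdh, which did not pass the test, were among the 21. ACGTG is not specific to these factors. It is part of the E-box CACGTG as well, so that both elements are counted. The genes shown are those with the largest difference that carry the motif upstream of the start, with ACGTG or its reverse complement in capitals.
Bnip3 (chr7:146101264-146101323, minus strand): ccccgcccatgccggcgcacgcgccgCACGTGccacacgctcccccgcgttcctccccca
Egln3 (chr12:55305052-55305111, minus strand): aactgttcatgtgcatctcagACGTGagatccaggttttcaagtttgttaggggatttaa
Pgk1 (chrX:103382281-103382340, plus strand): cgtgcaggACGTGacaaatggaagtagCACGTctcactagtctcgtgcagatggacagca
In Bnip3 the capitals form CACGTG and hold the motif on both strands, and in Pgk1 the stretch holds it once on each strand. Bnip3, the prolyl hydroxylase Egln3 and the glycolytic kinase Pgk1 were lower by log2 differences of -2.32, -1.60 and -1.21. Over all genes, ACGTG was in 28.1% of the windows of genes that were higher and in 32.5% of those that were lower in Mtgr1-/- cells.

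Germline and meiosis genes were also lower in Mtgr1-/- cells: 15 of 20 tested were lower and 1 higher, with a median of -1.19, and between 9 and 15 were lower with each library left out. The share of lower genes was 20.0% over all genes tested. Smc1b, the cohesin subunit of meiosis, had a log2 difference of -3.34 (adjusted p = 0.000831 in limma). It was at 8.14 and 8.37 RPKM in the E294K lines and at 0.504, 0.397 and 0.218 RPKM in the Mtgr1-/- clones. Hormad1, which acts on chromosome axes, was at 5.11 and 5.37 RPKM against 0.809, 0.606 and 0.368 RPKM. Another meiotic cohesin subunit, Stag3, was lower by -2.33, and Tdrd12, of the pathway that silences transposons through piRNAs, by -2.62. Ddx4 did not pass (log2 difference 0.53): it was at 4.0 and 4.12 RPKM against 7.95, 7.46 and 3.75 RPKM, and without C3 its log2 difference was 0.85 (adjusted p = 0.000255). Of 12 genes of germ cell specification 5 were lower and 1 was higher, where 38.5% of all genes tested differed. Prdm14, 1 of those lower, is the transgene of the E294K lines, and the Mtgr1-/- clones were near its wt level. Kit, the receptor of stem cell factor, was at 11.1 and 12.7 RPKM in the E294K lines and at 2.94, 3.19 and 2.52 RPKM in the Mtgr1-/- clones, and Sox15 had a log2 difference of -2.26.

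Regulators of DNA methylation were divided, with 5 higher and 5 lower among 13 tested, where 38.5% of all genes tested differed. Tet1 was at 64.8 and 57.9 RPKM in the E294K lines against 25.9, 25.6 and 16.1 RPKM in the Mtgr1-/- clones (log2 difference -1.45, adjusted p = 0.00558, and 0.0533 without E294K F10), whereas Tet3 was at 2.23 and 2.33 RPKM against 6.56, 6.05 and 8.93 RPKM (log2 difference 1.45). Dnmt3l, the cofactor of the de novo enzymes, was lower by -1.27 (adjusted p = 0.00487, and 0.0555 without E294K G6), and the maintenance enzyme Dnmt1 did not pass (-0.22). Without E294K F10 or G6, 1 of these regulators was higher and 2 lower. Of 11 subunits of Polycomb repressive complex 2, 7 were lower and 1 was higher, with a median of -0.63. The share of lower genes was 20.0% over all genes tested. Ezh1 and Mtf2 had log2 differences of -1.43 and -1.36, and Suz12 of -1.0. The catalytic subunit Ezh2 did not pass (log2 difference -0.58, adjusted p = 0.0552, and 0.000772 without C3). With each library left out, between 1 and 9 of the subunits were lower, and it was without E294K G6 that only 1 remained past the threshold, with adjusted p of 0.0538 for Mtf2 and 0.053 for Suz12.

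Signalling genes moved in parts, where 18.5% of all genes tested were higher and 20.0% lower. In the FGF and ERK group, 9 of 22 were higher and 6 lower: Fgf4, the main FGF of mESCs, was at 112 and 120 RPKM in the E294K lines against 25.1, 32.0 and 19.6 RPKM in the Mtgr1-/- clones (log2 difference -2.18, adjusted p = 0.00153), while the ERK phosphatase genes Dusp5 and Dusp4 were higher by 2.03 and 1.47. Dusp6 and Spry2, feedback genes of the same pathway, did not pass (log2 differences 0.09 and -0.20). Of 16 Wnt pathway genes 8 were higher and 3 lower, and Wnt4 and Wnt7b had log2 differences of 2.69 and 2.10. The receptor Fzd7 had a log2 difference of 0.00 with an interval of -0.25 to 0.25. Without E294K G6, 4 FGF and ERK genes were higher and 2 lower, and 3 Wnt genes were higher.

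Among 25 genes of the Nodal and BMP pathways 7 were higher and 2 lower, a share near that of all genes tested (38.5%). Id3, a target of BMP signalling that inhibits basic helix-loop-helix factors, was at 20.1 and 19.3 RPKM in the E294K lines and at 84.1, 97.4 and 135 RPKM in the Mtgr1-/- clones (log2 difference 2.37, adjusted p = 0.00129). Id2 was at 13.3 and 14.7 RPKM against 67.6, 74.7 and 63.2 RPKM (log2 difference 2.25). The activin subunit gene Inhbb was lower (log2 difference -1.96), and the Nodal antagonist Lefty2 did not pass (-0.12, adjusted p = 0.00135 without C3). Without C3, 10 genes of this group were higher and 11 lower. In the LIF and Stat3 group 3 of 14 were higher and 4 lower, where 38.5% of all genes tested differed. Klf4 was lower (log2 difference -2.44) and the kinase Pim2 higher (1.83). Without E294K G6, 1 gene of that group was higher and 1 lower.

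The 10 genes with the largest negative differences were Prdm14, Gm7325, Khdc3, A2m, Ndufa4l2, Sept1, Ly6g6e, Aire, Ephx2 and Smc1b. Prdm14 stands there as the transgene overexpressed in the E294K lines. Gm7325 was at 27.8 and 27.0 RPKM in the E294K lines and at 0.546, 0.794 and 1.36 RPKM in the Mtgr1-/- clones (log2 difference -4.36, standard error 0.25, adjusted p = 0.000831). Khdc3, known as a maternal gene of the egg, was at 36.2 and 38.0 RPKM against 1.09, 1.84 and 3.56 RPKM. The log2 differences of the remaining 7 ranged from -3.83 (A2m) to -3.34 (Smc1b). The 10 were taken from genes with a mean of at least 2 RPKM whose groups do not overlap, as they do not for 68.9% of all genes.

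Some groups differed little, where 38.5% of all genes tested differed. Of 17 cell cycle genes 1 was higher and 2 lower, with a median of 0.01, and the replication helicase gene Mcm2 had a log2 difference of -0.02 (interval -0.24 to 0.21). Without C3, 5 of them were higher and 5 lower. None of 10 tested two-cell-like genes passed in limma, with a median of -0.05 and 0 at an unadjusted p below 0.05, and 6 of them were higher without C3. These genes have near-identical copies between which the counting could divide reads, and their levels were low, with Zscan4c at 1.5 and 1.71 RPKM in the E294K lines and 1.98, 2.14 and 0.271 RPKM in the Mtgr1-/- clones. Of 12 fibroblast markers 6 could be tested, and Col1a1, Col1a2 and S100a4 were higher and Thy1 lower in Mtgr1-/- cells. Without E294K F10 only S100a4 passed, without G6 none of the 4 did, and without A3 S100a4 missed the threshold (adjusted p = 0.0505). Of the others, Fap was at 0 in all 5 libraries, Col3a1, Dcn, Lum, Postn and Prrx1 reached at most 0.619 RPKM, and the summed level of the list was 15.3 and 15.6 RPKM in the E294K lines and 17.6, 17.0 and 32.8 RPKM in the Mtgr1-/- clones. Col1a1 was higher in Mtgr1-/- cells (log2 difference 2.21, adjusted p = 0.0186, and 0.114 or 0.0826 without E294K F10 or G6), and was highest in clone C3. Col1a2 was at 0.0592 and 0.171 RPKM in the E294K lines and at 1.14, 0.914 and 2.95 RPKM in the Mtgr1-/- clones, and Thy1 at 11.2 and 10.4 RPKM against 5.67, 6.73 and 5.9 RPKM. Of 13 neural markers 4 could be tested and 3 were higher, namely Nes (log2 difference 1.78, adjusted p = 0.00116), Tubb3 (1.18) and Sox11 (1.19), of which only 1 passed without E294K F10 or G6. Nes was at 15.8 and 12.9 RPKM in the E294K lines and at 52.3, 45.4 and 53.1 RPKM in the Mtgr1-/- clones, while Sox1, Pax6, Neurog1, Neurog2, Zic1, Dcx, Olig2 and Hes5 lay between 0 and 0.763 RPKM. The summed neural level was 53.5 and 46.7 RPKM in the E294K lines and 119, 119 and 157 RPKM in the Mtgr1-/- clones. The part of such cells in the results above was not tested, and fewer cells of a type and less RNA per cell cannot be told apart in these bulk libraries.

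The other conditions in serum+LIF give the levels between which these differences lie. For the 2277 genes that were higher in Mtgr1-/- cells, the single wt library was nearer to the E294K mean in 2019 (88.7%), and for the 2452 lower genes in 2219 (90.5%), against 74.9% of all genes tested. For 1295 of the higher and 1538 of the lower genes, the wt level lay on the far side of the E294K lines, away from the Mtgr1-/- clones, and for 921 and 848 it lay between both groups. The FH-Mtgr1 lines were nearer to E294K for 76.7% of the higher and 65.9% of the lower genes (63.2% of all genes), and the FH-Prdm14 lines for 76.8% and 85.0% (66.0%). By the labels, the Prdm14-/- clones are the parents of the E294K lines, though the Y-linked genes do not follow these labels. The Prdm14-/- clones were nearer to E294K for 41.2% of the higher and 56.2% of the lower genes, against 46.7% of all genes. These shares are descriptions, as the wt condition has no replicate and the conditions share clones on the labels.

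**Figure D4:**
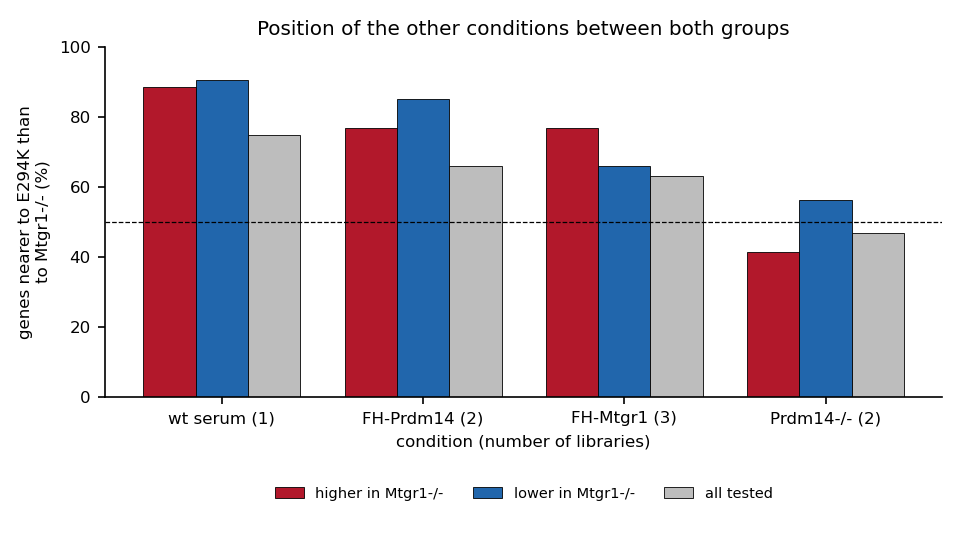
Share of genes (y axis, percent) for which a condition (x axis, number of libraries in brackets) lay nearer to the E294K mean than to the Mtgr1-/- mean. Red and blue bars are genes that were higher or lower in Mtgr1-/- cells, grey bars all genes tested, and the dashed line marks equal shares. The wt library is at 88.7% and 90.5%, and the Prdm14-/- clones at 41.2% and 56.2%.

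The Prdm14-/- and FH-Prdm14 libraries enter neither group, and they were read as a second pair of conditions. The E294K lines carry the same clone labels. Both Prdm14-/- clones were above both FH-Prdm14 lines for 66.8% of the genes that were higher in Mtgr1-/- cells, against 30.5% of all genes, and below both for 68.6% of the lower genes, against 39.2% of all genes. The groups differed in this. Of the 17 contractile genes 16 were higher in both Prdm14-/- clones and 1 lower, and of the 17 naïve genes all were lower. The glycolysis and hypoxia genes, of which 25 were lower in Mtgr1-/- cells, were higher in both Prdm14-/- clones than in both FH-Prdm14 lines in 18 of 31 cases and lower in 8. The FH-Prdm14 lines G6R and F10R are no wt reference, with Prdm14 at 116 and 79.8 RPKM against 2.77 RPKM in wt. Pgk1, for example, was at 744 and 894 RPKM in the Prdm14-/- clones G6 and F10, above the 560 and 641 RPKM of the FH-Prdm14 lines and far above the 356, 337 and 344 RPKM of the Mtgr1-/- clones.

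**Figure D5:**
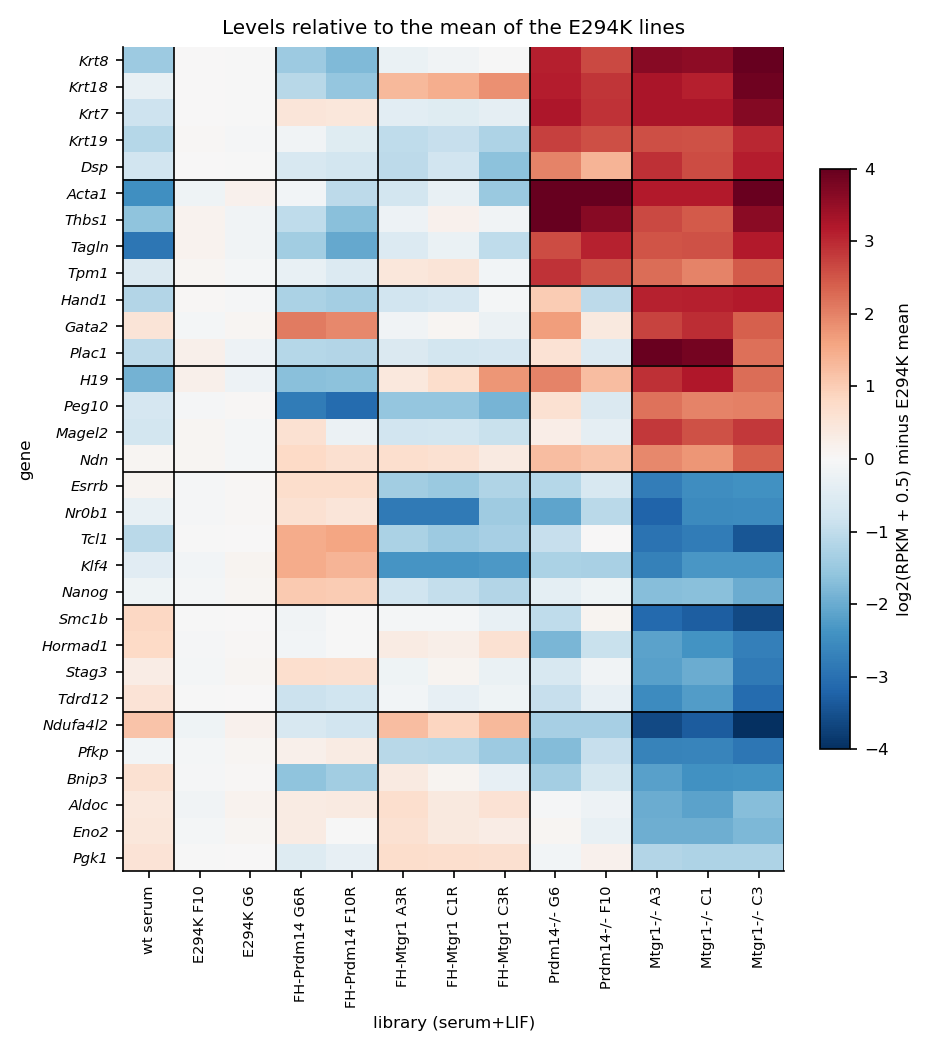
Log2(RPKM + 0.5) of 31 genes in the 13 libraries grown in serum+LIF, minus the mean of the E294K lines, with the genes in rows by group and the libraries in columns by condition. Red is higher and blue lower than the E294K mean, on a scale from -4 to 4, and the keratin and contractile rows are red in both knockouts, whereas the rows for Hand1, Plac1, Magel2, Smc1b and Aldoc are strongly coloured in the Mtgr1-/- clones alone.

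Single genes showed where both knockouts resembled each other and where they did not. Krt8 was at 549 and 396 RPKM in the Prdm14-/- clones G6 and F10, below every Mtgr1-/- clone but far above the E294K lines, and at 22.9 RPKM in wt cells. Acta1 was even higher than in Mtgr1-/- cells, at 95.9 and 117 RPKM. Hand1, in contrast, was at 7.68 and 1.48 RPKM in the Prdm14-/- clones, near the 3.66 and 3.44 RPKM of the E294K lines and below every Mtgr1-/- clone. Smc1b was at 3.86 and 8.93 RPKM and Aldoc at 25.4 and 22.7 RPKM in the Prdm14-/- clones, also nearer to the E294K lines. Magel2 was at 0.962 and 0.434 RPKM, so that its high level was found in the Mtgr1-/- clones and not in the other conditions grown in serum+LIF, where it reached at most 1.34 RPKM. Whether these genes differ between the knockouts was not tested here.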

How the data were processed

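RNA-seq values of 5 mESC libraries (3 Mtgr1-/-, 2 E294K) were compared. The authors aligned reads with Tophat to mm9, used HTSeq to count those falling in RefSeq gene models, and deposited RPKM values with gene lengths, and whether counting used strand is not stated. RPKM times length gave whole reads for 100% of values, from which depth was computed. A gene was tested if 2 or more of the 5 libraries reached an RPKM of 1 (12281 of 24015). Log2(RPKM + 0.5) was fitted in limma (version 3.58.1, R version 4.3.3) as a linear model with empirical Bayes moderation and a mean-variance trend, using Benjamini-Hochberg adjustment and a threshold of 0.05. Standard errors and 95% intervals are those of limma. Differences on this scale understate the change of low genes. The fit was checked on simulated data. No libraries agreed within sampling noise (lowest chi-square per degree of freedom 3.26), so none were merged.

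Named genes are both targeted genes, the 12 study markers, the 10 largest differences in each direction (groups not overlapping, mean RPKM of at least 2) and, from each list, up to 4 genes past the threshold and 2 that missed it; Pgk1, Egln3, Cnn2, Myl9, Vcl, Eno2 (in a plot only) and the markers beyond that rule were named after their values were seen. The comparison, the members and the lists were chosen with earlier results of these data known. The groups share no clone, so the comparison has no pairs; a clone block was fitted over all 15 libraries. The other alternatives were pseudocounts, filters, scaling, voom, no trend, adjustment for GC content or gene length, and each library left out. Some genes that meet the naming rule are not reported here. Other steps used Python 3.11.15.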

Additional observations from a re-analysis of the deposited data

How the results depend on the processing

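The number of genes that differed was within 1.5 times the reported one under pseudocounts of 0.1 and 1, without a filter, with median-of-ratios scaling, without the trend, with voom, with length or GC adjustment and with all 15 libraries fitted. A minimum mean RPKM of 5, which left 8355 genes, gave 2907 genes that differed, 1500 higher and 1407 lower, with the wt level nearer to E294K for 2609. With 1 library left out the number lay between 1064 and 7607, with 498 to 3661 higher, 566 to 3946 lower and 1027 to 6274 with a wt level nearer to the E294K mean than to the Mtgr1-/- mean. All 4729 reported genes were among the 7607 found without C3, where fewer samples and a smaller spread entered. Leaving out an E294K line left that group with 1 library, assumed to vary like the others. No named gene that passed changed sign. With the replicate block by the parental clone on the labels over all 15 libraries, 4292 genes differed, 2043 higher and 2249 lower, and 3906 had the wt level nearer to E294K. Without the block 4248 genes differed, and the correlation within labelled clones was -0.0914. The Y-linked genes do not follow these labels, so the block may not group the libraries as they were derived. The groups compared share no clone, so no pairing applies. Of the genes named, the block and the fit of 15 libraries lost Dnmt3b, Cldn4 and Tubb3 (adjusted p = 0.289, 0.0553 and 0.0986 with the block) and gained Ezh2, Fn1, Pou3f1, Srf and Vim; no other call of a named gene changed there. Adjustment for GC content brought Ddx4, Ezh2, Fn1, Gapdh, Impact, Klf5, Pou3f1, Slc2a1, Srf, Trim28, Utf1 and Vim past the threshold, voom brought Ezh2, Fn1, Gapdh, Impact, Slc2a1, Srf and Vim, median-of-ratios scaling Impact and the mean of 5 RPKM Gapdh. The cause was not tested. Lists were read as counts and medians, with no test of a list. Median-of-ratios scaling moved the share of higher genes from 48.1% to 52.4%. Reads limit the low genes: the 12281 genes tested exclude those under 1 RPKM in all but 1 library.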

Other observations

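Known targets of p53 were higher in Mtgr1-/- cells in 8 of 13 tested cases and lower in none, with a median log2 difference of 0.53. The share of higher genes was 18.5% over all genes tested. Perp, a membrane protein of desmosomes and of p53-dependent cell death, was at 11.9 and 11.6 RPKM in the E294K lines F10 and G6 and at 58.9, 50.5 and 80.2 RPKM in the Mtgr1-/- clones A3, C1 and C3 (log2 difference 2.35, adjusted p = 0.00127 in limma). Plk2 had a log2 difference of 1.63 and Pmaip1, the gene for Noxa, of 1.26. Bax did not pass, with a log2 difference of 0.03. Without E294K F10 or G6, 3 of these genes passed. In cholesterol metabolism 6 of 23 genes were higher and 2 lower, with a median of 0.26, where 38.5% of all genes tested differed. The number of higher cholesterol genes was 2 without either E294K line and 12 without C3.

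Immediate early and stress genes were divided, with 6 of 17 higher and 6 lower, where 38.5% of all genes tested differed. Atf3, a factor induced by stress, was higher (log2 difference 1.67, adjusted p = 0.00155), and Egr1, a target of ERK signalling, was lower (-1.45, adjusted p = 0.00375). Without either E294K line 1 gene of this group was lower. Of 15 Rhox homeobox genes of the X chromosome 4 could be tested, and 2 were higher and 1 lower, the lower one, Rhox1 (log2 difference -1.06, adjusted p = 0.0219), not past the threshold without F10, G6 or A3. Rhox6 was at 9.01 and 10.1 RPKM in the E294K lines and at 66.5, 75.3 and 44.2 RPKM in the Mtgr1-/- clones (log2 difference 2.60), and Rhox9 had a log2 difference of 2.22. Rhox genes have close copies in a cluster, so that reads could be divided between them. The Wnt ligand gene Wnt3, of the primitive streak, was at 0.235 and 0.262 RPKM against 1.68, 1.37 and 2.58 RPKM, and Eomes did not pass (log2 difference 0.48, adjusted p = 0.00957 without C3).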
